A study of Mus musculus with 16 samples.

Results

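The costimulatory and inhibitory receptors described here are 10 genes chosen by symbol, Cd28, Icos, Ctla4, Pdcd1, Btla, Lag3, Tigit, Havcr2, Cd200 and Havcr1, of 31053 genes counted in lung and MLN and 32285 genes counted in a separate run on lymph nodes. They were followed in single CD4+ T cells of 4get/C57BL/6 mice, in which eGFP reports transcription of Il4 and so also marks cells at an early step of Th2 differentiation. All mice were infected subcutaneously with 500 larvae of Nippostrongylus brasiliensis (Nb), a roundworm that passes through the lung and then lives in the gut, received antibiotics in the drinking water for the first 5 days and were analysed on day 10. No uninfected mice were part of the groups. In the run on lung and MLN, IL-4eGFP+ CD4+ cells were sorted from perfused lung, which still held some intravascular cells, and from the mesenteric lymph node (MLN, draining the gut) of the same 2 mice aged 13 weeks, giving 2 samples per organ with 1 library each. In the node run, cells of the mediastinal lymph node (medLN, draining the lung) and the MLN of 2 other mice aged 10 weeks were labelled with hashtag antibodies and pooled into 1 IL-4eGFP+ library and 1 IL-4eGFP- library, giving 2 samples for each combination of node and gate. Because each gate of the node run was 1 library, gate and library cannot be told apart.

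T cells need a costimulatory signal beside that of the T cell receptor, and CD28 and ICOS are the receptors of the CD28 family that give it. CTLA-4, which competes with CD28 for CD80 and CD86, PD-1 (encoded by Pdcd1) and BTLA are members or relatives of that family that restrain the cell. LAG-3, a relative of CD4 that binds MHC class II, TIGIT, which binds the poliovirus receptor that also engages the activating receptor CD226, and TIM-3 (encoded by Havcr2) are inhibitory receptors of other families, while TIM-1 (encoded by Havcr1) has been described as costimulatory. CD200 is a ligand on lymphocytes for the inhibitory receptor CD200R, mostly found on myeloid cells. Follicular helper T cells, which help B cells in lymph nodes, are known for PD-1, ICOS, BTLA, TIGIT and CD200, and regulatory T cells for CTLA-4, ICOS, TIGIT and LAG-3.

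In GRCm38, Cd28 (ENSMUSG00000026012, chr1:60716800-60773359), Ctla4 (ENSMUSG00000026011, chr1:60887000-60915832) and Icos (ENSMUSG00000026009, chr1:60977927-61000320) follow each other on the plus strand of chromosome 1. Pdcd1 (ENSMUSG00000026285, chr1:94038305-94052553) lies on the minus strand of the same chromosome, Tigit (ENSMUSG00000071552, chr16:43648867-43664146, minus), Btla (ENSMUSG00000052013, chr16:45224315-45257670, plus) and Cd200 (ENSMUSG00000022661, chr16:45382135-45409053, minus) lie on chromosome 16, Havcr2 (ENSMUSG00000020399, chr11:46454935-46481255, plus) and Havcr1 (ENSMUSG00000040405, chr11:46735080-46779578, plus) on chromosome 11 and Lag3 (ENSMUSG00000030124, chr6:124904361-124911705, minus) on chromosome 6. Ctla4 and Icos each overlap an annotated gene on their own strand, Rpl18-ps1 and Gm37039, in the annotation used for these positions. Whether the reference used for counting held these 2 genes, and whether they affected the counts, was not tested. Promoter windows from RefSeq (GRCm38.p6), 250 bases before to 50 bases after the annotated start, were matched for 7 of the 10 genes and not for Cd28, Icos and Lag3. The windows of Ctla4 and Cd200, which differed between lung and MLN in opposite directions, and of Pdcd1 and Tigit, which differed most between the gates, are shown because the 5′ libraries were read from the transcript start that lies inside them. Capitals mark motifs found on either strand, which do not overlap here. The NFAT core was searched as GGAAA. The GATA core was searched as GATAA. The window of Ctla4 is chr1:60908775-60909074 on the plus strand, inside the annotated span of the gene, that of Cd200 chr16:45409004-45409303, that of Pdcd1 chr1:94052504-94052803 and that of Tigit chr16:43664135-43664434, all 3 on the minus strand.
Ctla4: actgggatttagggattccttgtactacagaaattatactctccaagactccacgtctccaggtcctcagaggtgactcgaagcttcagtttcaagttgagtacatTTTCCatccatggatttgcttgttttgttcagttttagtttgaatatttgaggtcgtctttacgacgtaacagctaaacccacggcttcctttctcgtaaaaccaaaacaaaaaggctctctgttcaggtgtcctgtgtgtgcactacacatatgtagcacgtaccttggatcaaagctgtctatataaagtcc
Cd200: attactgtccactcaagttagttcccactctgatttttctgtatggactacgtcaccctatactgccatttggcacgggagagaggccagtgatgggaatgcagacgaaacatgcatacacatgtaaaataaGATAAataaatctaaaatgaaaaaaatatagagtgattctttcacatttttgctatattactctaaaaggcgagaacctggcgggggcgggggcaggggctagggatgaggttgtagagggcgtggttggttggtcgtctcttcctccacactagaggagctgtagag
Pdcd1: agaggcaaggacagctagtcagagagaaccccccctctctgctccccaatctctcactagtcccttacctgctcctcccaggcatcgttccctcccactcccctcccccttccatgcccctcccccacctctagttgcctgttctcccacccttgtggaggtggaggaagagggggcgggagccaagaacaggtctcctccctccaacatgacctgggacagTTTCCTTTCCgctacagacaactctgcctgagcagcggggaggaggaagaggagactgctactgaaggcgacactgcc
Tigit: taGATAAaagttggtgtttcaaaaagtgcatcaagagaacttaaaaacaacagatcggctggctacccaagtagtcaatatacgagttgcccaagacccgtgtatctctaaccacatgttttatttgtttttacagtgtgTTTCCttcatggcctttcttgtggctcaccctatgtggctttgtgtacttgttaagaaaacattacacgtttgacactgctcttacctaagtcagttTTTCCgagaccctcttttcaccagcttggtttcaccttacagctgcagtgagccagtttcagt
The NFAT core occurred 1 time in the window of Ctla4, 2 times in that of Pdcd1 and 2 times in that of Tigit, and not in that of Cd200. Each copy was read as the reverse complement, and those of Pdcd1 adjoin. Of 32851 promoter windows of this length, 61.3% held it. The GATA core occurred 1 time each in the windows of Tigit and Cd200 and was present in 25.4% of all windows. The AP-1 motif TGANTCA, present in 7.81% of all windows, was in none of the 4 windows printed. These matches are letters in a window and say nothing of binding.

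After the filters of the study, 416 to 2462 cells per sample remained in lung and MLN, with 2798232 to 14512767 UMIs in total and a median of 4971 to 6910 UMIs per cell. The node samples held 1992 to 2249 cells, with 7546083 to 10636927 UMIs and medians of 3165.5 to 3666.5. The sum of 6 CD4 T cell markers was 3084 to 4708 CPM (UMIs scaled to 1e6 per sample) in every group, Il4 stood at 0 to 0.399 CPM in the IL-4eGFP- samples and at 153 CPM or more in all others. B cell markers summed to 0.358 to 0.707 CPM in lung, 2.92 to 3.46 in MLN of the same run and 19.1 to 46.5 in the node run. Sftpc, a marker of alveolar epithelium, was at 0 in every sample, but the 5 epithelial or stromal markers that include it summed to 39.0 to 76.8 CPM. The 8 myeloid markers summed to 171 to 250 CPM in the IL-4eGFP+ and 102 to 120 CPM in the IL-4eGFP- node samples, and to 123 to 149 CPM in lung and MLN. The part of such transcripts in the results was not tested. The node libraries shared 147 cell barcodes, against at most 34 for any other pair among the 15 pairs of libraries. They were also the largest, with 9382 and 10024 filtered cells against 416 to 2462 in the other libraries. Whether 147 exceeds the overlap due to library size was not tested. Levels below are counts of UMIs scaled to CPM over all non-TCR UMIs summed over the cells of a sample, so fewer cells with a transcript and less of it per cell cannot be told apart in them. The runs were processed separately and their levels are set side by side without a test.

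**Figure D1:**
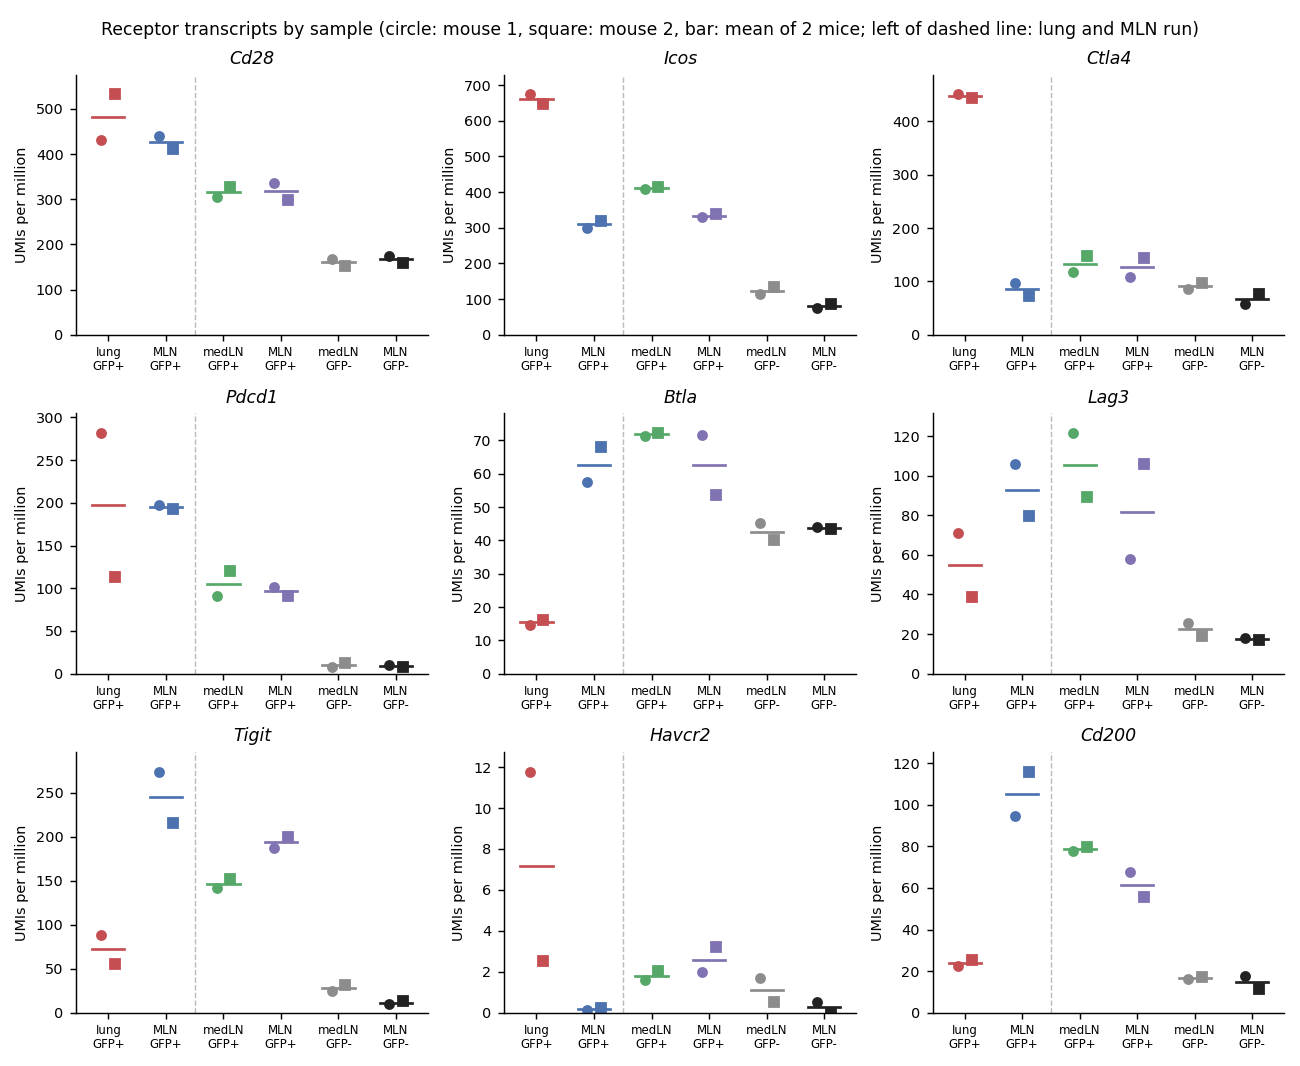
Level of 9 receptors in CPM (vertical axis, linear from 0, own scale for each gene) in the 12 samples, with circles for mouse 1, squares for mouse 2 and bars for the mean of 2 mice. Ctla4 reached 452 and 443 in lung against 97.6 and 73.4 in MLN, and Pdcd1 stayed at 12.5 or below in the IL-4eGFP- samples.

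Among the costimulatory receptors, Cd28, whose product gives the classical second signal, was detected in every group. Its level was 432 and 533 CPM in lung 1 and lung 2, 441 and 411 CPM in MLN 1 and MLN 2 of the same mice, and 298 to 337 CPM in the 4 IL-4eGFP+ node samples, with 153 to 175 CPM in the 4 IL-4eGFP- samples. Icos, the inducible costimulator, was at 675 and 646 CPM in lung, at 300.1 and 318 CPM in MLN, at 407 and 414 CPM in IL-4eGFP+ medLN, at 330.2 and 338 CPM in IL-4eGFP+ MLN of the node run, at 113 and 133 CPM in IL-4eGFP- medLN and at 75.8 and 87.4 CPM in IL-4eGFP- MLN. Lung samples were thus the highest of all for Icos and the IL-4eGFP- samples the lowest, and the groups within each run did not overlap. Havcr1 was nearly absent: 11 of 12 samples had no UMI, which allows up to 0.208 to 1.08 CPM by the 3 counts that a count of 0 permits. The 1 UMI among 21462 cells came from a cell of IL-4eGFP- medLN 1 that carried UMIs of at least 2 B cell markers and no CD3 chain, so no cell with both a Havcr1 and a CD3 UMI was seen, and the gene passed the filter in no comparison.

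Of the inhibitory receptors of the CD28 family, Ctla4 was at 452 and 443 CPM in lung and at 97.6 and 73.4 CPM in MLN. In the node run it was at 118 and 148 CPM in IL-4eGFP+ medLN, 109 and 144 CPM in IL-4eGFP+ MLN, 85.5 and 97.9 CPM in IL-4eGFP- medLN and 58.6 and 76.9 CPM in IL-4eGFP- MLN. Both lung samples therefore stood far above all 10 others. Pdcd1 was at 282 and 113 CPM in lung 1 and lung 2, at 197 and 193 CPM in MLN, at 90.4 to 119.7 CPM in the IL-4eGFP+ node samples and at 7.89 to 12.5 CPM in the IL-4eGFP- samples. The MLN samples of Pdcd1 fell between the lung samples of the 2 mice. Btla was at 14.7 and 16.1 CPM in lung, 57.5 and 68.0 CPM in MLN, 71.4 and 72.3 CPM in IL-4eGFP+ medLN, 71.6 and 53.6 CPM in IL-4eGFP+ MLN, and 40.0 to 45.3 CPM in the IL-4eGFP- samples. For Btla, the lung samples were lower than even the IL-4eGFP- samples.

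For the inhibitory receptors of other families, Tigit was at 88.6 and 55.6 CPM in lung, 274 and 216 CPM in MLN, 141 and 152 CPM in IL-4eGFP+ medLN, 187 and 200.4 CPM in IL-4eGFP+ MLN, 24.5 and 31.4 CPM in IL-4eGFP- medLN and 9.32 and 13.5 CPM in IL-4eGFP- MLN. Every pair of groups within a run was separate for Tigit, and the order of the nodes was opposite in the gates. Lag3 was at 71.1 and 38.7 CPM in lung, 106 and 79.5 CPM in MLN, 122 and 89.5 CPM in IL-4eGFP+ medLN, 57.7 and 106 CPM in IL-4eGFP+ MLN and 17.1 to 25.7 CPM in the IL-4eGFP- samples. The mice differed for Lag3, so that medLN and MLN of the IL-4eGFP+ gate overlapped. Havcr2 had 100 UMIs in lung 1 and 7 in lung 2, or 11.8 and 2.51 CPM, against 2 and 1 UMIs in MLN, and 0 to 3.21 CPM in the node samples. Lung 1 had 4.70 times the Havcr2 level of lung 2, with a counting interval of 2.20 to 12. The ligand Cd200 was at 22.3 and 25.1 CPM in lung, 94.8 and 116 CPM in MLN, 77.8 and 79.9 CPM in IL-4eGFP+ medLN, 67.8 and 55.6 CPM in IL-4eGFP+ MLN and 11.3 to 17.8 CPM in the IL-4eGFP- samples.

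The comparison of lung with MLN asks which receptors differ between Th2 cells at the site of the worm's passage and in a distant node. Lung tissue was digested with a dissociation kit and purified over Percoll, while nodes were mashed without digestion. Organ and tissue preparation therefore cannot be told apart. In lung, Ctla4, Icos and Havcr2 were higher and Cd200, Btla and Tigit were lower, so that inhibitory receptors moved in both directions. Of the 9 receptors tested, 3 were higher and 3 lower, beside 31% of 10590 genes called in all, 17% higher and 14% lower. Ctla4 was higher with a log2 fold change of 2.51 ± 0.16 (SE, n = 2 mice, adjusted p = 3.99e-06 in edgeR's quasi-likelihood test), 4.63-fold in mouse 1 and 6.04-fold in mouse 2. Icos was higher by 1.23 ± 0.13 on the log2 scale (adjusted p = 8.99e-05), 2.25-fold in mouse 1 and 2.03-fold in mouse 2. Folds by mouse are ratios of CPM without the scaling between samples that the test applied, so its value can lie outside them. Havcr2 was higher by 5.71 ± 0.86 (adjusted p = 0.00102), and by counts the ratio of lung to MLN was 85.1 (interval 23.0 to 712) in mouse 1 and 11.2 (1.44 to 504) in mouse 2. With lung 1 left out, Havcr2 no longer passed the filter on low counts, so its call rests on that library.

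Cd200 had a log2 fold change of -2.02 ± 0.14 (adjusted p = 8.16e-06), Btla of -1.88 ± 0.15 (adjusted p = 1.55e-05) and Tigit of -1.58 ± 0.23 (adjusted p = 0.000727). In both mice these receptors were at 0.216 to 0.323 times their MLN level. The 3 markers of follicular helper T cells (Cxcr5, Bcl6 and Il21) summed to 15.8 to 19.4 CPM in lung and 169 to 186 CPM in MLN, moving with these receptors. With all cells that had a Foxp3 or Il21 UMI left out, 6 of 9 receptors were still called, beside 3173 of 10562 genes. The log2 fold changes there were -1.96 for Cd200, -1.85 for Btla and -1.54 for Tigit. That setting removed only 1.11% and 0.962% of lung cells and 4.47% and 3.98% of MLN cells. Follicular helper cells without such a UMI stayed in, so it cannot show their part in the difference. B cells also carry Btla and Cd200 transcripts, and the B cell markers summed to 0.358 to 0.707 CPM in lung and 2.92 to 3.46 CPM in MLN, moving in the same direction; their part in the result was not tested.

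Lag3, Cd28 and Pdcd1 did not pass the test between lung and MLN. Lag3 had a log2 fold change of -0.55 ± 0.26 (adjusted p = 0.135), which became -0.62 with adjusted p = 0.000758 when the mouse was fitted as a block. That block left 1 residual degree of freedom per gene, so calls with it rest on the spread shared over all genes. Cd28 had 0.30 ± 0.12 (adjusted p = 0.0842, or 0.0323 with the block), while by CPM lung was at 0.979 times the MLN level in mouse 1 and 1.30 times in mouse 2. Pdcd1 had 0.21 ± 0.34 (adjusted p = 0.666), and by CPM lung was at 1.43 times the MLN level in mouse 1 and at 0.588 times in mouse 2. Without lung 1 the difference of Pdcd1 was -0.73, and without lung 2 it was 0.74, so the lung library that was kept decides its direction. Without lung 1, which leaves 1 lung library, Lag3 had -1.22 and Cd28 0.38. When lung and MLN cells with an Il5 or Il13 UMI were left out, Pdcd1 had -0.40 (adjusted p = 0.190), Lag3 -1.10 (adjusted p = 0.00913) and Cd28 0.43 (adjusted p = 0.0173).

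**Figure D2:**
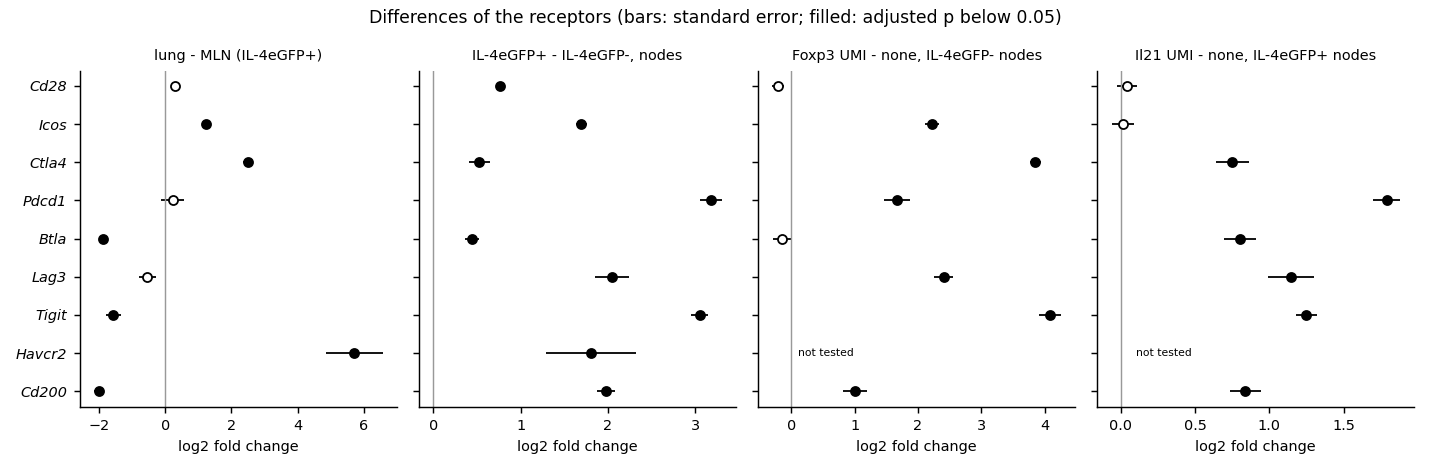
Log2 fold changes (horizontal axis, own scale for each panel) of the 9 receptors with bars for the standard error and filled points for an adjusted p below 0.05, in lung against MLN, IL-4eGFP+ against IL-4eGFP- nodes, and cells with against cells without a Foxp3 or an Il21 UMI. Ctla4 had 2.51 between lung and MLN but 0.53 between the gates, and Pdcd1 had 0.21 and 3.18.

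Among ligands and partners of these receptors, 6 of the 14 genes tested were higher in lung and 3 lower, with a median log2 fold change of 0.61 against -0.01 over all genes. Cd160, a partner of the BTLA ligand HVEM, was lower (-3.93 ± 0.24), and Lgals3, encoding galectin-3, was higher (3.85 ± 0.18). Icosl, the ligand of ICOS, was higher by 1.72 ± 0.17, and Cd200r1, the receptor of CD200, by 1.57 ± 0.16. Of 12 other co-signalling receptors, 5 were higher, with Klrg1 (3.52 ± 0.28), Cd101 (1.36 ± 0.24) and Slamf1 (1.05 ± 0.15) named by the rule, and 4 were lower, with Slamf6 (-2.06 ± 0.13) among them. Of 21 proximal signalling genes, 3 were higher and 7 lower. The adaptor gene Grap2 was higher by 1.21 ± 0.11 and Sla by 1.05 ± 0.14, while Sh2d1a, encoding the adaptor SAP, had -2.32 ± 0.14 and Dgkz -1.62 ± 0.12. Of 14 regulators tested, 3 were higher, among them Zc3h12a (2.81 ± 0.20), encoding Regnase-1, and Irf4 (1.96 ± 0.16), and 4 were lower, among them Tox2 (-2.91 ± 0.17) and Ikzf2 (-1.53 ± 0.17). The adjusted p of the named genes of these lists was 0.00257 or lower.

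The lung-draining and the gut-draining node were compared within each gate. In IL-4eGFP+ cells, Icos was slightly higher and Tigit slightly lower in medLN, and the other receptors were not called. That made 2 of 9 receptors, beside 1.28% of 11265 genes. Icos had a log2 fold change of 0.29 ± 0.05 (adjusted p = 0.0334), 1.23-fold in both mice, and Tigit -0.41 ± 0.07 (adjusted p = 0.0305), at 0.755 and 0.758 times the MLN level. Neither call held without the filter on low counts (adjusted p = 0.102 for both), and neither held without medLN 1 or without medLN 2, with adjusted p of 0.202 to 0.369. Icos also lost its call without MLN 1 (adjusted p = 0.0524) and Tigit without MLN 2 (adjusted p = 0.0794). The log2 fold changes of the other 7 receptors were between -0.55 for Havcr2 and 0.35 for Lag3 and Cd200.

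In IL-4eGFP- cells, Tigit was higher in medLN, with a log2 fold change of 1.24 ± 0.18 (adjusted p = 0.0150), 2.63-fold in mouse 1 and 2.33-fold in mouse 2. It was 1 of 8 receptors tested that was called, beside 0.178% of 10683 genes, and Havcr2 and Havcr1 were under the filter. Icos had 0.54 ± 0.10 (adjusted p = 0.0583) and Ctla4 0.38 ± 0.12 (adjusted p = 0.542). With the mouse as a block, 65 genes and 3 receptors were called, as Icos (adjusted p = 9.67e-05) and Ctla4 (adjusted p = 0.0104) joined Tigit. That blocked fit had 1 residual degree of freedom per gene, so its calls rest on the spread shared over all genes. Icos had log2 fold changes of 0.41 to 0.66 with any 1 of the 4 samples left out, and Ctla4 of 0.18 to 0.61. Each of these fits leaves 1 mouse in a group. IL-4eGFP- medLN held 220 and 257 cells with a Foxp3 UMI, or 10.2% and 12.3% of its cells, and IL-4eGFP- MLN 189 and 232, or 8.40% and 10.7%. Without cells that had a Foxp3 or Il21 UMI, Tigit had 0.80 (adjusted p = 0.983). Among only the cells with a Foxp3 UMI, it had 1.06 ± 0.17 (adjusted p = 0.000409) and Icos 0.54 ± 0.13 (adjusted p = 0.0206). Without the filter on low counts, Tigit had an adjusted p of 0.205 in the whole gate.

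Between the gates of the node run, all 9 receptors tested were higher in IL-4eGFP+ cells, beside 31.8% of 11537 genes that were higher and 62.1% that were called in either direction. Pdcd1 and Tigit differed most. Pdcd1 was higher by 3.18 ± 0.13 on the log2 scale (adjusted p = 4.82e-09), 10.1-fold in medLN and 10.6-fold in MLN, and Tigit by 3.05 ± 0.10 (adjusted p = 1.13e-09). Lag3 was higher by 2.04 ± 0.19 (adjusted p = 4.43e-06), Cd200 by 1.98 ± 0.11 (adjusted p = 5.13e-08) and Icos by 1.70 ± 0.06 (adjusted p = 2.05e-09). Havcr2 was higher by 1.81 ± 0.52 (adjusted p = 0.0102) on few counts, 15 to 34 UMIs in the IL-4eGFP+ and 0 to 13 in the IL-4eGFP- samples. Cd28 (0.76 ± 0.05, adjusted p = 1.58e-07), Ctla4 (0.53 ± 0.12, adjusted p = 0.00216) and Btla (0.44 ± 0.08, adjusted p = 0.000627) were higher by less than 1 on that scale.

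Naive T cell transcripts were higher in the IL-4eGFP- samples, where the 3 naive markers (Ccr7, Lef1 and Igfbp4) summed to 1404 to 1580 CPM, against 253 to 316 CPM in the IL-4eGFP+ samples. With the IL-4eGFP- cells that had a Foxp3 UMI left out, the log2 fold change became 1.92 for Ctla4, 4.58 for Tigit, 2.65 for Lag3 and 2.23 for Icos. All 9 receptors were still called there, beside 7300 of 11488 genes. Foxp3 cells of the IL-4eGFP+ gate stayed in. Those left out were richer in Ctla4, Tigit, Lag3 and Icos than the rest of their gate, so larger folds for these follow from the setting. When both gates were limited to cells with a Cd44 UMI, a gene high in antigen-experienced T cells, and no Foxp3 or Ccr7 UMI, a setting chosen after seeing the data, 454 to 545 cells per sample remained in the IL-4eGFP+ gate but only 43 to 60 in the other. There Pdcd1 (2.28, adjusted p = 1.19e-05), Tigit (1.48, adjusted p = 2.71e-05), Cd28 (0.57, adjusted p = 0.00583) and Icos (0.51, adjusted p = 0.0158) were still higher, Ctla4 turned to -0.80 (adjusted p = 0.0194), and 3 receptors were not called. Of these, Lag3 (0.80, adjusted p = 0.146) and Cd200 (0.79, adjusted p = 0.162) had smaller folds than over all cells, while Btla (0.43 ± 0.25, adjusted p = 0.332) had nearly its fold over all cells (0.44 ± 0.08) with a wider error. In that setting 5 of 8 receptors tested were called in either direction, beside 1120 of 9266 genes, and Havcr2 was not tested. The median log2 fold change of all genes was 0.07 there.

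Tigit was the only receptor whose gate difference was called as unequal between the nodes. It was 5.25 times as high in the IL-4eGFP+ as in the IL-4eGFP- gate in medLN and 17.0 times as high in MLN, and the interaction on the log2 scale was -1.65 ± 0.20 (adjusted p = 0.0130). In this test 1 of 9 receptors and 0.156% of 11537 genes were called, or 81 genes in place of 18 with the hashtag sample as a block. The call was lost without IL-4eGFP+ MLN 2 (adjusted p = 0.0633), without IL-4eGFP- medLN 2 (adjusted p = 0.0738) and without cells that had a Foxp3 or Il21 UMI (-1.21, adjusted p = 0.241). In the IL-4eGFP- samples the share of cells with a Tigit UMI, 2.13% to 4.73%, was no higher than the 1 of 18 seen in barcodes with B cell markers, 5.56% with an exact 95% interval of 0.141 to 27.3. In the same library 1.07% to 2.02% of the cells without a Foxp3 UMI had one of Tigit.

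Of the 15 ligands and partners tested between the gates, 5 were higher in IL-4eGFP+ cells and 6 lower, with Cd160 (2.38 ± 0.16), Pdcd1lg2, encoding the PD-1 ligand PD-L2 (1.77 ± 0.11), Lgals3 (1.48 ± 0.23) and Cd200r1 (1.26 ± 0.08) named. Other co-signalling receptors were higher in 5 of 12 genes and lower in 3, with Slamf6 (1.10 ± 0.04) and Cd48 (0.43 ± 0.05) among those higher. Of 21 proximal signalling genes, 9 were higher, such as Sh2d1a (1.51 ± 0.04) and Ptpn11 (1.09 ± 0.05), the latter encoding the phosphatase SHP-2 that PD-1 recruits, and 10 were lower, such as Trat1 (-1.62 ± 0.10). Of 15 regulators, 10 were higher and 4 lower, among them Tox2 (4.33 ± 0.11), Maf (3.07 ± 0.07), Irf4 (1.71 ± 0.16) and Foxp3 (-3.14 ± 0.14). All had an adjusted p of 0.000195 or lower. Between the nodes, these lists gave few calls. In IL-4eGFP+ cells Cd160 (-1.32 ± 0.17), Vsir (-0.34 ± 0.06) and Tox2 (-0.53 ± 0.09) were lower in medLN and Irf4 was higher (0.81 ± 0.13), and in IL-4eGFP- cells Ikzf2 was higher (0.60 ± 0.09).

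IL-4eGFP- cells with a Foxp3 UMI were compared with those without in the same 4 samples. Foxp3 encodes the transcription factor of regulatory T cells, and such cells had 424 to 506 CPM of Ctla4, where the 2 lung samples of the other run had 443 and 452 CPM. Of 8 receptors tested, 6 were higher and none lower, beside 13.7% of 9818 genes that were higher and 24.4% called in all. Ctla4 went from 31.8 to 473 CPM in medLN 1, from 33.0 to 506 in medLN 2, from 25.1 to 424 in MLN 1 and from 28.9 to 494 in MLN 2 (log2 fold change 3.85 ± 0.08, adjusted p = 5.22e-14). Tigit went from 5.17 to 164 CPM and from 10.2 to 165 in medLN, and from 4.07 to 66.7 and from 5.68 to 81.5 in MLN (4.09 ± 0.17, adjusted p = 1.86e-10). The increase was seen in all 4 samples, and the Tigit level of the Foxp3 cells was higher in both medLN samples than in both MLN samples.

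Icos went from 65.8 to 454 CPM and from 88.5 to 414 in medLN and from 61.6 to 231 and from 59.7 to 328 in MLN (2.22 ± 0.11, adjusted p = 1.61e-09). Lag3 went from 13.7 to 112 CPM and from 12.3 to 62.9 in medLN and from 13 to 72.6 and from 12.3 to 58.0 in MLN (2.41 ± 0.15, adjusted p = 1.72e-08). Pdcd1 (1.67 ± 0.21, adjusted p = 1.88e-05) and Cd200 (1.00 ± 0.18, adjusted p = 0.000761) were also higher, but remained at 18.5 to 37.8 and 23.5 to 39.7 CPM in the Foxp3 cells, below every IL-4eGFP+ sample of the same run. Cd28 (-0.21 ± 0.09, adjusted p = 0.124) and Btla (-0.15 ± 0.14, adjusted p = 0.498) were not called. Median depth was somewhat lower with a Foxp3 UMI, at 2768 to 3157.5 UMIs against 3320 to 3410 without. The 6 calls were kept in each of 9 alternatives. By edgeR, Cd28 was called lower in cells of 2000 to 6000 UMIs (-0.26, adjusted p = 0.0225). It was also called lower without the filter on low counts (-0.25, adjusted p = 0.0343).

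**Figure D3:**
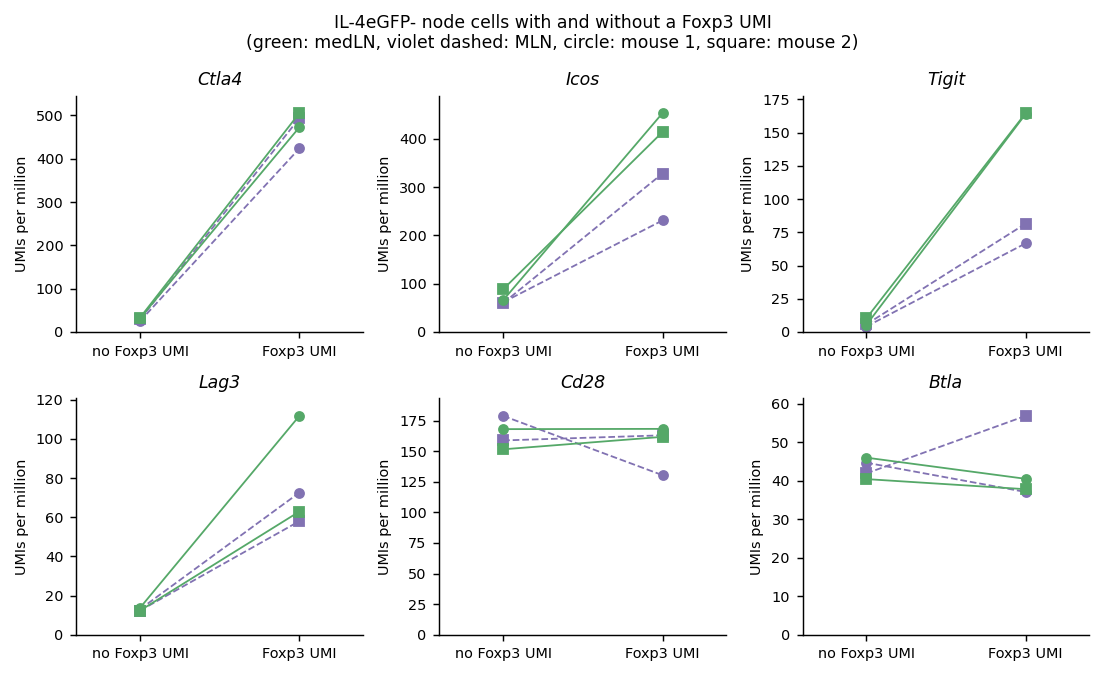
Level of 6 receptors in CPM (vertical axis, linear from 0) in IL-4eGFP- cells without and with a Foxp3 UMI, joined for each sample (green for medLN, violet dashed for MLN, circles for mouse 1, squares for mouse 2). Ctla4, Icos, Tigit and Lag3 were higher in all 4 samples, whereas Cd28 and Btla stayed near their level, with log2 fold changes of -0.21 and -0.15 that were not called.

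In the same comparison, 11 of 15 regulators were higher and 1 lower, with a median of 1.14. Foxp3, which defined the class, was among them, beside Ikzf2 (3.53 ± 0.10), encoding Helios, Prdm1 (3.13 ± 0.27) and Maf (3.00 ± 0.16). Of 12 other co-signalling receptors, 8 were higher and 1 lower, among them Klrg1 (4.32 ± 0.46), Slamf1 (1.26 ± 0.14), Cd5 (0.70 ± 0.09) and Cd6 (0.61 ± 0.09). Of 14 ligands and partners, 4 were higher and 2 lower, with Pdcd1lg2 (2.37 ± 0.18) and Lgals9 (-0.29 ± 0.08) named. Proximal signalling genes were lower in 7 of 21 cases and higher in 3, with Grap2 (-0.61 ± 0.14) and Trat1 (-0.52 ± 0.10) lower and Sla (0.90 ± 0.08) and Sh2d1a (0.84 ± 0.09) higher. The named genes of these lists had an adjusted p of 0.0124 or lower.

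In the IL-4eGFP+ node samples, 101 to 140 cells had a UMI of Il21, a cytokine of follicular helper T cells. Against the cells without, 6 of 8 receptors were higher and none was lower, beside 4.11% of 10275 genes that were higher and 9.1% called in all. Pdcd1 went from 75.2 to 309.6 CPM in medLN 1, from 101 to 395 in medLN 2, from 90.7 to 269 in MLN 1 and from 76.1 to 256 in MLN 2 (log2 fold change 1.79 ± 0.09, adjusted p = 7.75e-12). Tigit went from 129 to 327 CPM and from 139 to 347 in medLN and from 175 to 390.4 and from 178 to 451 in MLN (1.25 ± 0.07, adjusted p = 1.11e-10). Lag3 (1.15 ± 0.16, adjusted p = 2.23e-05), Cd200 (0.84 ± 0.11, adjusted p = 1.04e-05), Btla (0.80 ± 0.11, adjusted p = 2.33e-05) and Ctla4 (0.75 ± 0.11, adjusted p = 6.17e-05) were higher as well, each in 4 of 4 samples. Icos, another receptor for which follicular helper cells are known, had 0.01 ± 0.07 (adjusted p = 0.953) and Cd28 0.04 ± 0.07 (adjusted p = 0.809). Havcr2, under the filter here, was at 1.69 to 3.50 CPM without and had no UMI in the Il21 cells. The 6 calls were kept in each of 9 alternatives, including cells of 2000 to 6000 UMIs only.

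Among the lists, 8 of 15 regulators were higher in Il21 cells and 1 was lower, with Ikzf2 (1.42 ± 0.12), Tox (1.36 ± 0.09), Bcl6 (1.32 ± 0.11) and Tox2 (1.18 ± 0.11) named. Proximal signalling genes were higher in 8 of 21 cases, such as Ptpn11 (1.29 ± 0.09) and Zap70 (0.72 ± 0.08), and lower in 3, such as Trat1 (-1.04 ± 0.18) and Pik3r1 (-0.82 ± 0.17). Ligands and partners were mostly lower, in 6 of 11 genes with 1 higher and a median of -0.62, among them Lgals3 (-1.31 ± 0.24), Cd226, the activating partner of TIGIT (-0.84 ± 0.19), and Cd200r1 (-0.70 ± 0.21), while Cd160 was higher (1.18 ± 0.20). Of 12 other co-signalling receptors, Slamf1 was higher (0.77 ± 0.16) and 3 were lower, with Cd48 (-0.51 ± 0.09) named. The adjusted p of these genes was 0.0367 or lower.

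Lung cells with an Il5 or Il13 UMI, cytokines of effector Th2 cells, numbered 351 of 1082 and 88 of 416. Pdcd1 was at 163 CPM without and 499 with such a UMI in lung 1 and at 95 and 167 CPM in lung 2, so that the difference was smaller in lung 2. Lag3 was at 46.6 and 116 CPM in lung 1 and at 25.9 and 76.6 CPM in lung 2, and Icos at 775 and 494 CPM and at 709 and 459 CPM. Havcr2 was at 5.48 and 23.3 CPM in lung 1 but at 3.36 and 0 CPM in lung 2. By edgeR's test Pdcd1 (1.37 ± 0.10), Lag3 (1.35 ± 0.13) and Havcr2 (1.67 ± 0.37) were higher and Icos (-0.66 ± 0.08) and Cd28 (-0.56 ± 0.08) lower, 5 of 9 receptors beside 9.61% of 9306 genes, with Ctla4 at 0.01 ± 0.08. With 2 libraries there was 1 residual degree of freedom per gene, so these calls rest on the spread shared over all genes. In DESeq2, Lag3 (adjusted p = 0.00123), Icos (adjusted p = 0.000658) and Cd28 (adjusted p = 0.0254) were called, and Pdcd1 was not (adjusted p = 0.191). Havcr2 had -0.46 ± 2.37 in DESeq2 (adjusted p = 0.9998), an error too wide to give a direction. The cells with Il5 or Il13 were deeper, with medians of 7530 against 6661 UMIs in lung 1 and 6530 against 5604.5 in lung 2. In cells of 2000 to 6000 UMIs, Pdcd1 (1.18, adjusted p = 0.0184) and Icos (-0.60, adjusted p = 0.0145) were still called, Lag3 had 0.33 (adjusted p = 0.824), Cd28 had -0.34 (adjusted p = 0.247) and Havcr2 was not tested. Without the block none was called, with 42 genes called in all and 876 at an unadjusted p under 0.05.

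**Figure D4:**
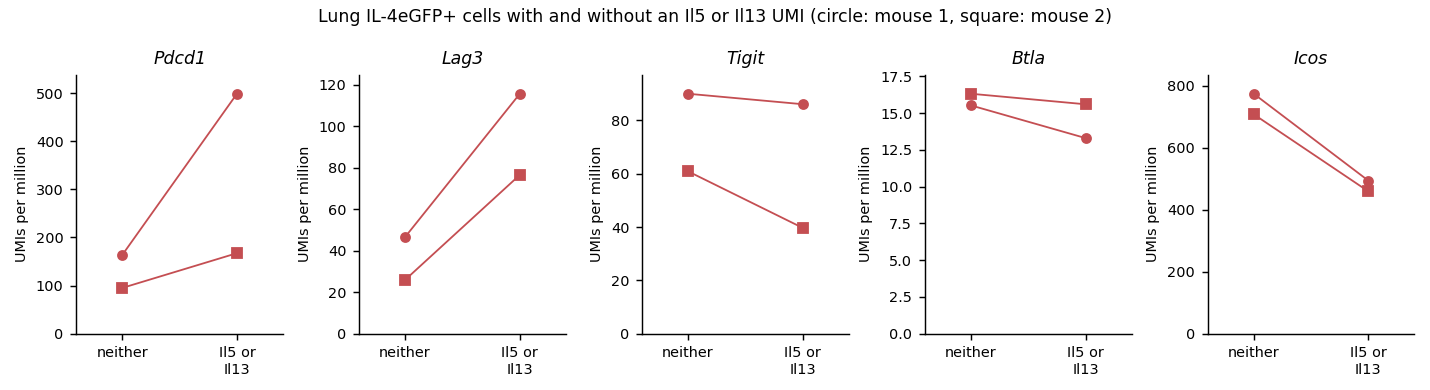
Level of 5 receptors in CPM (vertical axis, linear from 0) in lung IL-4eGFP+ cells, joined for each library (circles for mouse 1, squares for mouse 2), without and with an Il5 or Il13 UMI. Pdcd1 was higher in cells with Il5 or Il13 (163 against 499 and 95 against 167) and Icos lower, while the Lag3 difference was 0.33 on the log2 scale (adjusted p = 0.824, edgeR) in cells of 2000 to 6000 UMIs.

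In the lists, lung cells with Il5 or Il13 had higher Klrg1 (2.25 ± 0.18), Lgals3 (1.25 ± 0.13), Cd200r1 (0.38 ± 0.12) and Tox (0.39 ± 0.12) and lower Trat1 (-2.06 ± 0.23), Slamf6 (-1.65 ± 0.15), Vsir (-0.98 ± 0.13), Sh2d1a (-0.91 ± 0.13), Cd96 (-0.69 ± 0.14), Cblb (-0.68 ± 0.15), Ly9 (-0.62 ± 0.18) and Prkcq (-0.49 ± 0.10). The counts were 2 higher and 1 lower of 11 ligands and partners, 1 and 3 of 12 other receptors, 0 and 5 of 21 proximal signalling genes, and 1 and 0 of 14 regulators. Over all 9306 genes, 433 were higher and 461 lower. These values come from the main fit alone, with its 1 residual degree of freedom. The 894 genes called there became 42 without the block, 94 with DESeq2 and 110 in cells of 2000 to 6000 UMIs.

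Cells of lung and MLN with UMIs of both Mki67 and Top2a, genes of dividing cells, numbered 26 to 85 per library. In these, 7 of 8 receptors had a lower CPM than in cells with neither. Beside them, 21.4% of 8701 genes were lower and 41.7% were called in all. Lag3 had a log2 fold change of -1.23 ± 0.17 (adjusted p = 7.23e-06), Pdcd1 -1.19 ± 0.17 (adjusted p = 1.01e-05), Tigit -0.94 ± 0.16 (adjusted p = 8.94e-05), Icos -0.80 ± 0.12 (adjusted p = 2.92e-05), Btla -0.78 ± 0.25 (adjusted p = 0.0153), Ctla4 -0.64 ± 0.16 (adjusted p = 0.00275) and Cd28 -0.62 ± 0.12 (adjusted p = 0.000449). Cd200 had -0.28 ± 0.16 (adjusted p = 0.153). Icos, for example, was at 749.5 CPM in cells with neither and 389.5 CPM in cells with both in lung 1, 752 and 396 in lung 2, 310.5 and 214 in MLN 1 and 325 and 170.0 in MLN 2. For Btla the lower level was confined to MLN in these libraries, at 63.8 against 22.3 and 74.5 against 28.7 CPM, whereas lung had 14.7 against 19.7 and 15.6 against 17.1, and its call was lost without MLN 1 (adjusted p = 0.385) and without MLN 2 (adjusted p = 0.0648). The cells with both genes were deeper, with medians of 11834.5 to 16344 UMIs against 4750 to 6505. A lower CPM there does not mean fewer UMIs per cell. In lung 1, Cd28 had 490 UMIs in 80 cells with both and 2495 in 782 cells with neither, which is more per cell. Pdcd1 had 133 and 1793 UMIs in the same cells, which is fewer per cell. A window of 2000 to 6000 UMIs lies below the higher medians, so the part of depth for most of these cells was not tested. In that window 116 of 4861 genes were called, and the median over all genes was -0.83. Icos (-2.19, adjusted p = 0.00509) and Ctla4 (-2.07, adjusted p = 0.0455) were the 2 of 7 receptors called there. Those not called had -0.55 for Lag3, -0.81 for Pdcd1, -0.86 for Tigit, -1.31 for Cd28 and -2.09 for Cd200. Without the library as a block none of the 8 was called, with 1971 genes called in all and 3122 at an unadjusted p under 0.05.

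In the 4 lists, 0 of 10 ligands and partners were higher and 5 lower, 0 and 6 of 11 other receptors, 0 and 15 of 21 proximal signalling genes and 0 and 9 of 13 regulators, where the median over all genes was -0.09. Named among them were Cd96 (-1.33 ± 0.16), Icosl (-1.24 ± 0.22), Cd200r1 (-0.99 ± 0.19), Cd226 (-0.65 ± 0.23), Vsir (-1.12 ± 0.15), Cd84 (-0.97 ± 0.14), Cd101 (-0.91 ± 0.27) and Slamf1 (-0.85 ± 0.22). Of signalling genes and regulators, Cblb (-1.45 ± 0.19), Ptpn22 (-0.93 ± 0.14), Lck (-0.77 ± 0.11), Zap70 (-0.74 ± 0.12), Bcl6 (-1.62 ± 0.29), Tox (-1.51 ± 0.14), Zc3h12a (-0.96 ± 0.19) and Nfatc2 (-0.70 ± 0.16) were named.

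Shares of cells with a transcript were compared after each cell was thinned to 1500 UMIs, since deeper cells show more genes. Ctla4 was seen in 36.9% (exact 95% interval 34.0 to 39.9) and 40.5% (35.8 to 45.5) of lung cells and in 11.4% (10.2 to 12.7) and 9.60% (7.57 to 11.9) of MLN cells, while the unthinned shares were 66.0% and 68.8% against 27.7% and 23.1%. Tigit was seen in 10.8% and 8.01% of lung and 29.4% and 21.7% of MLN cells, Cd200 in 3.72% and 4.37% against 11.4% and 14.3%, and Btla in 2.05% and 2.91% against 8.5% and 9.20%. The number of cells with a transcript therefore differed in the same direction as the summed levels. Pdcd1 was seen in 23.3% and 11.4% of lung cells and in 22.9% and 21.9% of MLN cells, so that in the share lung 2 stood apart from the other 3 libraries, whereas in the level MLN lay between the lung libraries. These intervals cover counting error only.

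As a measure of free RNA, barcodes with UMIs of at least 2 B cell markers and no CD3 chain were used, 36 in the IL-4eGFP+ and 18 in the IL-4eGFP- node library, with medians of 3230.5 and 3773.5 UMIs. None of them had a UMI of Ctla4, Icos, Pdcd1 or Lag3, which allows shares of up to 8.33% and 16.7% among such barcodes. The choice left out barcodes with a CD3 UMI, and so also those that held free CD3 RNA. These limits can therefore be too low as a bound on free RNA. In the IL-4eGFP+ node samples, unthinned shares were 57.6% to 63.4% for Icos, 23.1% to 31.2% for Ctla4 and 23.9% to 28.0% for Pdcd1, all above that limit. In the IL-4eGFP- samples the shares of Pdcd1 (2.35% to 3.68%), of Lag3 (2.68% to 4.01%) and of Ctla4 (9.25% to 12.8%) were under the limit that 18 barcodes allow. Within these samples the unthinned shares were higher in cells with a Foxp3 UMI than in those without, at 50.9% to 58.8% against 5.01% to 6.47% for Ctla4, 8.19% to 18.2% against 2.02% to 2.57% for Lag3 and 5.17% to 10.5% against 2.00% to 2.73% for Pdcd1. Tigit had a UMI in 4 of the 36 and 1 of the 18 barcodes, against 30.9% to 42.2% of IL-4eGFP+ cells. Its share among IL-4eGFP- cells was 12.1% to 24.1% with a Foxp3 UMI and 1.07% to 2.02% without, a gap within 1 library. B cells carry Btla and Cd200 themselves, so these barcodes give no background for them.

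**Figure D5:**
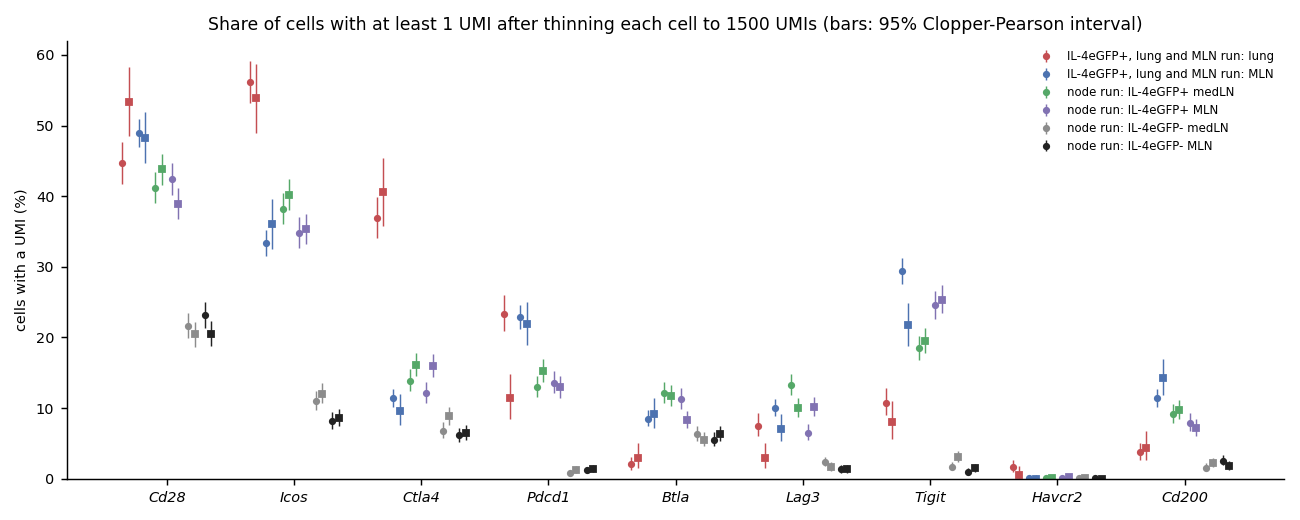
Share of cells with at least 1 UMI of each of 9 receptors in percent (vertical axis, linear from 0) after thinning to 1500 UMIs, with circles for mouse 1, squares for mouse 2 and bars for the exact 95% interval of each sample. Lung (red) was highest for Icos and Ctla4 and below all other IL-4eGFP+ samples for Tigit, Btla and Cd200.

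Most IL-4eGFP+ cells carried a UMI of at least 1 of the 10 genes at this depth, 89.1% and 90.0% in lung, 85.2% and 84.0% in MLN and 79.9% to 81.1% in the node run, against 37.3% to 39.0% of IL-4eGFP- cells. Cells with 3 or more made up 27.8% and 23.5% of lung, 25.3% and 22.5% of MLN, 19.1% to 23.6% of the IL-4eGFP+ node samples and 1.82% to 3.67% of the IL-4eGFP- samples. Pairs of receptors in 1 cell were then counted. In IL-4eGFP- cells with a Tigit UMI, 21 to 64 cells per sample, 47.2% to 67.7% also had Ctla4, against 5.53% to 6.93% of cells without Tigit. For Lag3 these shares were 22.2% to 33.3% against 0.91% to 2.01%. In IL-4eGFP+ node cells with a Tigit UMI, 14.1% to 19.0% had Ctla4 against 11.6% to 15.6% without.

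For Pdcd1 and Tigit, 41.2% and 41.5% of Pdcd1 cells in MLN 1 and MLN 2 had Tigit, against 25.9% and 16.2% of cells without Pdcd1, and in the node run the shares were 32.7% to 40.5% against 15.9% to 23.1%. In lung 1 they were 9.96% against 11% and in lung 2 17.0% against 6.85%, so the libraries of the lung differed in direction. For Pdcd1 and Icos in lung 1 and lung 2, 48.2% and 42.6% of Pdcd1 cells had Icos against 58.6% and 55.3% of other cells. These are descriptions over cells of 1 sample, without a test.

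Over the 12 samples, the genes whose levels were most like those of a receptor had Pearson correlations of log2(CPM + 1) of 0.900 or above for 9 of the 10 receptors, given without a p since the points share run, gate and library. They were Dapp1, Crlf2 and Xist for Pdcd1 (0.989, 0.987 and 0.985), Isy1, Tnfrsf18 and Wsb1 for Ctla4 (0.977, 0.974 and 0.973), Pdcd1lg2, Ahr and Bcl2a1d for Icos (0.986, 0.986 and 0.985) and Ptpn9, Bag3 and Micu2 for Cd28 (0.987, 0.986 and 0.986). For Btla they were Utrn, Thumpd3 and Smyd5 (0.984, 0.981 and 0.981), for Lag3 Ndufs5, Letm1 and Ccdc28b (0.986, 0.971 and 0.960), for Tigit Csnk1a1, Ergic3 and Unc93b1 (0.983, 0.980 and 0.978) and for Cd200 Sccpdh, Itgal and Lamtor4 (0.988, 0.985 and 0.982). For Havcr2 they were Zfand5, Nceh1 and Uhrf2 (0.925, 0.901 and 0.900), on few counts, and for Havcr1, on fewer still, Agap2, Atp8a1 and Ubxn7 (0.776, 0.699 and 0.646). Of the 27 genes named for the receptors other than Havcr1, Letm1 alone was also named for the same receptor over the 8 node samples.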

How the data were processed

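IL-4eGFP+ CD4+ cells of lung and MLN and, in a second run, IL-4eGFP+ and IL-4eGFP- cells of medLN and MLN were profiled by 10x 5′ single-cell RNA sequencing. The deposited values were UMI counts per gene and cell, which the authors made with Cell Ranger (versions 2.1.1, 3.0.1 and 6.1.2 in the submitters' processing notes) on mm10. The 2 sequencing runs of lung and MLN were combined by the authors, and whether reads were thinned when the node libraries were aggregated is not given in the sources used here.

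Cells with more than 500 UMIs, more than 500 genes, less than 7% mitochondrial UMIs and a novelty score above 0.8 were kept, in lung and MLN only with a productive TCR alpha and beta chain. Node cells were assigned to 8 hashtag samples with HTODemux of Seurat 5.3.0, which removed doublets and negatives, and doublets within lung and MLN libraries were tried only as cells of surplus TCR chains. TCR genes were left out, and UMIs were summed per sample or per sample and cell class. Sums were tested with edgeR 4.0.16 (filterByExpr, TMM, quasi-likelihood test, R 4.3.3), and p-values were adjusted by Benjamini-Hochberg across the tested genes with 0.05 as the threshold. Cell classes were fitted with the sample or library as a block. DESeq2 1.42.0, other size factors, no filter, other cell sets, the block and leaving out each sample were alternatives. In the comparisons of organs, nodes and gates, leaving out a sample left 1 mouse in its group. The p-values and counts of calls of those fits then rest on the spread of the other groups. Of the steps, only edgeR fits were tried on simulated counts. They were those of lung against MLN, IL-4eGFP+ nodes, gates, Foxp3 cells and Il5 or Il13 cells.

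Lung and MLN, and medLN and MLN, came from the same 2 mice by the labels, so equal numbers pair samples. Deviations of same-numbered samples correlated at 0.0393 between lung and MLN, at 0.235 and 0.117 between nodes in the IL-4eGFP+ and IL-4eGFP- gates and at 0.116 and 0.125 between gates. Each group had 2 mice, so precision rests on 2 values, and intervals on shares cover counting error only.

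A comparison of lung cells, an alternative for the gates and a few listed genes are not reported here. The receptors and lists were chosen with earlier results of these data known. Of each list, up to 4 genes past the threshold with the largest change and a mean of at least 10 CPM were named. Promoter windows came from RefSeq.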

Additional observations from a re-analysis of the deposited data

Results flagged for a closer look

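The gate difference of Tigit was unequal between the nodes by a test of the difference itself, with an interaction of -1.65 ± 0.20 on the log2 scale (adjusted p = 0.0130 in edgeR's quasi-likelihood test, 2 mice). Tigit was at 141 and 152 CPM in IL-4eGFP+ medLN and at 24.5 and 31.4 CPM in IL-4eGFP- medLN, a ratio of 5.25, and at 187 and 200.4 CPM in IL-4eGFP+ MLN and at 9.32 and 13.5 CPM in IL-4eGFP- MLN, a ratio of 17.0. Cells with a Foxp3 UMI, which were richer in Tigit, made up 10.2% and 12.3% of IL-4eGFP- medLN and 8.40% and 10.7% of IL-4eGFP- MLN. In the IL-4eGFP+ gate such cells made up 1.02% and 1.29% of medLN and 2.71% and 3.24% of MLN. With Foxp3 and Il21 cells left out the interaction was -1.21 (adjusted p = 0.241). Without IL-4eGFP+ MLN 2 it was -1.59, and without IL-4eGFP- medLN 2 it was -1.46. Among only the IL-4eGFP- cells with a Foxp3 UMI, Tigit was higher in medLN by 1.06 ± 0.17 (adjusted p = 0.000409, same test). The part of Foxp3 cells in the interaction was not tested.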

How the results depend on the processing

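Of 804 values recomputed for the receptors, 742 kept their side of the threshold, and their direction wherever they passed it, while 21 came to pass the threshold, 38 no longer passed it and 3 turned, and the cause was not tested. The 3 were Pdcd1 in lung against MLN without lung 1 (-0.73, and 0.74 without lung 2), Ctla4 between the gates in Cd44 cells (-0.80) and Havcr2 in Il5 or Il13 cells by DESeq2 (-0.46). The error of that Havcr2 value was 2.37, so it gives no direction. The limit to Cd44 cells and the alternatives that leave out or keep cells by Foxp3, Il21, Il5 or Il13 were chosen after seeing the data, except the one that leaves Foxp3 cells out of the IL-4eGFP- gate.

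Between lung and MLN, 3285 genes were called, 1834 with DESeq2 and 1921 to 3680 when 1 library was left out. Between the nodes in IL-4eGFP+ cells, 144 genes and 2 receptors were called, 47 and 0 without the filter on low counts, and 23 to 164 and 0 to 2 with 1 sample left out. In IL-4eGFP- cells, 19 genes and 1 receptor became 65 and 3 with the mouse as a replicate block, 2 and 0 without the filter, 6 and 0 without Foxp3 or Il21 cells, 265 and 2 in Foxp3 cells only, and 98 to 194 and 2 to 3 with 1 sample left out, and DESeq2 called 2 receptors. Between the gates, 7165 genes and 9 receptors became 1120 genes and 5 of 8 receptors tested with the limit to Cd44 cells. Ctla4, 1 of these 5, was called in the opposite direction. For the difference of the gate effect between nodes, 18 genes became 81 with the block, 37 with DESeq2, 69 without the filter, 10 without Foxp3 or Il21 cells, where no receptor was called (0 of 9), and 4 to 13 with 1 sample left out, with 0 to 1 receptors.

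For Il21 cells, 935 genes became 602 with DESeq2 and 598 to 834 with 1 sample left out. For Il5 or Il13 cells, 894 genes and 5 receptors became 42 and 0 without the block, 94 and 3 with DESeq2 and 110 and 2 in cells of 2000 to 6000 UMIs. For cells with Mki67 and Top2a, 3624 genes and 7 receptors became 1971 and 0 without the block and 116 and 2 in that depth window. In the pairing of lung with MLN the block gave 3874 genes and 8 receptors, and it changed no other call than those named here and in the report. Fits with the mouse as a block had 1 residual degree of freedom per gene. Leaving out a lung library was not run for the lung cells with Il5 or Il13, since no residual degree of freedom would remain. Of 27 genes most like a receptor other than Havcr1, 1 was also named over the node samples alone. Havcr1 and Havcr2 had few counts, at 0 to 100 UMIs a sample, and whether depth limited them was not tested.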
